A study of Mus musculus with 13 samples.

Results

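Cytosolic ribosomal proteins are described here in 2 kinds of mouse natural killer (NK) cell, the liver-resident kind (LrNK) and the conventional kind (cNK). The genes were chosen by name: protein-coding genes whose symbol is Rpl or Rps followed by a digit, with Rplp0, Rplp1, Rplp2 and Rpsa, leaving out Rps6k kinases, pseudogenes and predicted genes. That gave 86 of the 54532 genes in the count files. By role, 43 encode large-subunit proteins, 31 small-subunit proteins and 3 the proteins of the large-subunit stalk. A further 8 are paralogs (near relatives of a common ribosomal protein), and 1, Rps19bp1, is a binding partner of Rps19 that only shares the prefix.

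The study sorted NK cells from C57BL/6J mice aged 8 to 10 weeks and sequenced their RNA as 13 libraries. LrNK libraries, labelled as liver lymphocytes, number 4 from wild-type mice and 3 from mice labelled CD8KO. The cNK libraries, labelled as splenocytes, number 3 of each genotype. The title names CD8+ T cells and the CD70-CD27 axis in the maturation of liver-resident NK cells, so the 2 genotypes ask what the absence of CD8+ T cells does to each kind of cell. The labels do not name the knockout allele, and cell type and tissue cannot be told apart in any comparison of LrNK with cNK.

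A ribosome holds 1 copy of nearly every ribosomal protein, so the genes for them are transcribed at high and closely matched levels in most cells. Their messages start with a run of pyrimidines, the 5′ terminal oligopyrimidine (TOP) tract, through which the mTOR pathway and Larp1 control their translation together. Resting lymphocytes keep ribosome production low and raise it on activation. Some members also act outside the ribosome: Rpl5 and Rpl11 bind Mdm2 when ribosome assembly is disturbed. Rps6 is the classical substrate of S6 kinase.

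The start regions of 8 members that the results below turn on are shown first, from the RefSeq promoter table (GRCm38.p6), which holds 66 of the 86 members. Each line gives 40 bases before and 20 bases after the annotated start, read 5′ to 3′ on the gene's own strand. Capitals mark CTTTC, a short pyrimidine motif. Within 30 bases either side of the start, on the transcribed strand, CTTTC was found in 23 of 66 members (34.8%) and in 2459 of 26959 other genes (9.12%). CTTTCC, which contains it, was found there in 13 members (19.7%) and in 3.36% of the others. On the opposite strand CTTTC was found in 8 members (12.1%) and in 8.57% of the others. A match is a description of these letters only.
Rpl12 (chr2:32961672-32961731, plus strand): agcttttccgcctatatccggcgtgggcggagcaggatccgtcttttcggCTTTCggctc
Rpl28 (chr7:4792925-4792984, plus strand): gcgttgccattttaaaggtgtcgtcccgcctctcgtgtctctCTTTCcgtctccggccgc
Rplp2 (chr7:141447611-141447670, plus strand): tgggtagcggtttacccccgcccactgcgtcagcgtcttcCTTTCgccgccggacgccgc
Rps15a (chr7:118116128-118116187, minus strand): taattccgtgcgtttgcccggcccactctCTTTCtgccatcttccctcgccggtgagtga
Rps26 (chr10:128626487-128626546, minus strand): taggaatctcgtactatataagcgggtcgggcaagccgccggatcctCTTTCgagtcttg
Rps27 (chr3:90213629-90213688, minus strand): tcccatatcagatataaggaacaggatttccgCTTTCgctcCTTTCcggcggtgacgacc
Rps9 (chr7:3704001-3704060, plus strand): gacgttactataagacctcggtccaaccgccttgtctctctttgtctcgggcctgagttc
Rpl39 (chrX:37085203-37085262, minus strand): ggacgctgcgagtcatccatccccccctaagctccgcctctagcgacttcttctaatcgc
Rpl12, Rpl28, Rplp2, Rps15a, Rps26 and Rps27 carry the motif in this window, and Rps9 and Rpl39 do not. The motif was present both in Rpl12, the member that was lower in LrNK, and in members that were higher there. Over the longer stretch from 250 bases before to 50 after the start, CCGGAAG, a core site of ETS factors, was found on either strand in 26 members (39.4%) and in 9.86% of the other genes. TATAAA lay in the 40 bases before the start of 1 member (1.52%) on either strand, against 3.63% of the others.

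Before any group is compared, the libraries themselves differed. The LrNK libraries were the shallower, with 30578631 counts in the shallowest, and the deepest cNK library had 72716020. LrNK wild-type libraries 2 and 4, and LrNK CD8KO libraries 2 and 3, differed by a chi-square per degree of freedom of only 3.04 and 2.67, against 196 to 283 for every other LrNK pair. Each of these pairs was therefore summed and counted as 1 sample, which leaves n = 3, 2, 3 and 3 samples for LrNK wild type, LrNK CD8KO, cNK wild type and cNK CD8KO. LrNK wild-type libraries 1 and 3 and LrNK CD8KO library 1 had 13917 to 15797 detected genes, and the other 10 libraries had 19896 to 22921. The biological coefficient of variation was 98.2% in the fit of the LrNK samples and 9.6% in that of the cNK samples. In counts-per-million units (CPM), the 8 general NK markers summed to 3412 to 7897 in LrNK and 12010 to 13420 in cNK samples. The 4 markers of liver-resident NK cells summed to 507 to 1265 CPM in LrNK and 45.5 to 59.8 in cNK samples, and the 6 markers of conventional NK cells to 60.6 to 267 and 2847 to 3040. Messages of several other cell types were also higher in LrNK: the 6 erythroid markers summed to 153 to 3271 CPM, against 3.10 to 5.66 in cNK, and the 7 neutrophil and monocyte markers to 712 to 9119, against 288 to 361. The 7 hepatocyte markers summed to 19.0 to 47.0 CPM in LrNK and 0.277 to 1.12 in cNK, where Apoc3, Fgb, Serpina1c and Ttr were at 0 in both genotypes. The 6 T cell markers summed to 101 to 187 CPM in LrNK and 44.2 to 63.1 in cNK, the 8 B cell markers to 234 to 410 and 170.1 to 228, and the 5 plasma cell markers to 11.4 to 236 and 0.916 to 2.94. The 7 Kupffer cell markers overlapped, at 72.2 to 217 CPM in LrNK and 104 to 162 in cNK, although Clec4f was at 0 in cNK, and so did the 5 endothelial ones, at 87.3 to 132 and 97.5 to 111. The part of these cells in the results below was not tested, and in such bulk samples fewer cells of a type and less RNA per cell cannot be told apart. Cd8a was at 18.5 to 22.4 CPM in wild-type and 41.6 to 45.1 CPM in CD8KO-labelled LrNK libraries, and at 0.561 to 0.578 and 85.9 to 109 CPM in the cNK libraries, so this transcript was not lower under the CD8KO label. Below, CD8KO stands for the libraries labelled so, and every direction between genotypes rests on that label.

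Ribosomal protein messages were among the most abundant in every sample. Per length, in CPM per kilobase of the principal transcript (RPKM), the median member stood at 738, and by the mean over samples 49 members were among the 100 highest protein-coding genes. Sample by sample that number ran from 40 in LrNK CD8KO sample 2 to 51 in cNK CD8KO sample 2. Rplp1, an acidic stalk protein that helps recruit elongation factors, was the highest at a mean of 2567 RPKM over the 4 groups. It was followed by Rps27 at 2113, Rps14 at 1770, Rps15 at 1704 and Rpl13 at 1502. The lowest were the paralogs Rpl10l at 0, Rpl3l at 0.0444, Rpl39l at 0.262 and Rpl36al at 3.34, with Rpl24 at 2.46. Of the 86 members, 82 had counts in all 13 libraries and 1, Rpl10l, had none.

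Levels of 3 common members are uncertain. Rpl24 had 0 to 205 counts, Rps10 109 to 363 and Rpl13a 555 to 1295 in the 13 libraries, and lay far below the median member. Each shares exons with another annotated gene or has near-identical copies elsewhere: the copies of Rpl24 summed to a mean of 4.22 CPM against 2.02 CPM for the gene itself, and those of Rps10 to 4.91 against 5.06. Such copies (at least 95% identity) exist for 76 of the 86 members and could take reads from them. Together they held 0.0828% to 0.216% of all counts, or 1.78 to 3.27 counts per 100 counts of the members. These counts include Uimc1, a gene with a name of its own that was matched to Rpl29. It held a mean of 81.4 of the 94.7 CPM given to copies of Rpl29. In 6 members the copies exceeded 10% of the gene's own mean CPM, among them Rpl17, at 122 against 806 CPM.

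The 86 members together held the largest share of counts in LrNK wild-type samples. Their share was 5.34%, 6.75% and 6.97% in the LrNK wild-type samples 1, 2 and 3, and 5.17% and 5.49% in the LrNK CD8KO samples. It was 4.90%, 5.17% and 4.78% in the cNK wild-type samples and 5.09%, 5.09% and 4.66% in the cNK CD8KO samples. The mean was 6.36% ± 0.88 (SD, n = 3) in LrNK wild type, 5.33% ± 0.22 (SD, n = 2) in LrNK CD8KO, 4.95% ± 0.20 (SD, n = 3) in cNK wild type and 4.95% ± 0.25 (SD, n = 3) in cNK CD8KO. The LrNK wild-type samples lay above all cNK samples, sample 1 by the least, and the cNK genotypes overlapped fully. No test was made on this sum.

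**Figure D1:**
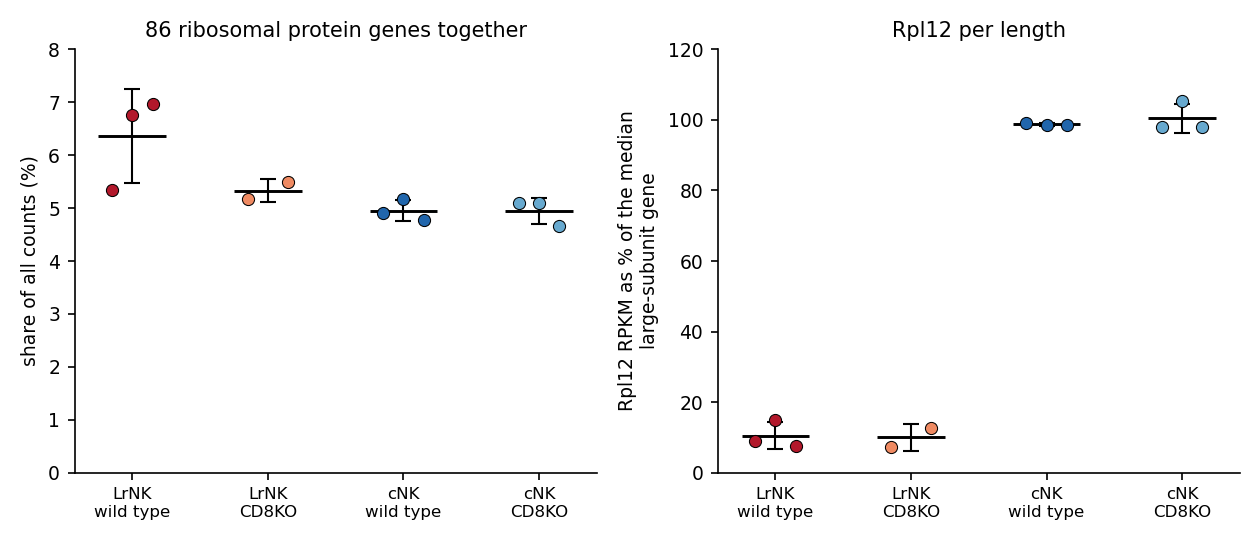
Left, the share of all counts (%) held by the 86 genes in each sample; right, the RPKM of Rpl12 as a percentage of the median large-subunit gene in the same sample. Points are samples, horizontal lines means and bars 1 SD (n = 3, 2, 3 and 3); the LrNK wild-type samples reach 6.97% on the left, and Rpl12 lies at 7.40% to 14.8% in LrNK and 97.9% to 105% in cNK samples on the right.

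The balance of the subunits differed little between groups, and its direction depended on the measure. The median large-subunit RPKM was 0.761 ± 0.002 (SD, n = 3) of the median small-subunit RPKM in LrNK wild type, 0.759 ± 0.007 (SD, n = 2) in LrNK CD8KO, 0.734 ± 0.006 (SD, n = 3) in cNK wild type and 0.733 ± 0.008 (SD, n = 3) in cNK CD8KO. Every LrNK sample (0.754 to 0.764) was above every cNK sample (0.724 to 0.740), a gap that was given no test. The ratio of summed counts went the other way: large-subunit counts were 1.24 ± 0.03 and 1.25 ± 0.05 times the small-subunit counts in LrNK wild type (SD, n = 3) and CD8KO (SD, n = 2), and 1.28 ± 0.005 and 1.29 ± 0.009 times in cNK (SD, n = 3 each). Rpl12, Rpl13a, Rpl24 and Rps10 were left out of these medians.

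Rpl12 stood apart from all other members. It encodes a large-subunit protein at the base of the stalk, where elongation factors bind, and lies on chromosome 2 (GRCm38, 32961559 to 32965345, plus strand). Its level was 79.2, 147 and 83.8 CPM in the LrNK wild-type samples and 60.0 and 106 CPM in the LrNK CD8KO samples. In cNK it was 756, 783 and 732 CPM in wild type and 773, 829 and 710 CPM in CD8KO samples. The highest LrNK sample was thus far below the lowest cNK sample, and within LrNK the summed samples (2 in each genotype) were the higher ones. As a share of the median large-subunit RPKM, Rpl12 stood at 98.7% ± 0.3 (SD, n = 3) in cNK wild type and 10.5% ± 3.8 (SD, n = 3) in LrNK wild type.

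In the edgeR fit Rpl12 was 6.83-fold lower in LrNK wild type than in cNK wild type (log2 -2.77 ± 0.30 SE, 95% interval -3.49 to -2.06, adjusted p = 0.00204). In the CD8KO samples it was 8.45-fold lower (log2 -3.08 ± 0.31 SE, 95% interval -3.85 to -2.30, adjusted p = 0.00223). These 2 comparisons have no sample in common. Of the genes at least as abundant as Rpl12 on average, 3 of 392 had a more negative change in wild type and 2 of 315 in CD8KO. Rpl12 passed the test in all 17 alternatives run in wild type, where its change ran from -3.18 to -2.25, and in all 16 in CD8KO, where it ran from -3.64 to -2.71. With LrNK libraries of many detected genes alone it was -2.25 in wild type, and with those of few detected genes alone -3.18.

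The genes around Rpl12 and its near-identical copies were examined for the same samples. The Rpl12 exons overlap Snora65, a small nucleolar RNA on the same strand, over 3.61% of their length and Lrsam1, a ubiquitin ligase gene on the other strand, over 1.56%. Slc2a8, the neighbouring glucose transporter gene, was higher in LrNK, by 2.66 ± 0.19 (log2 ± SE) in wild type (edgeR adjusted p = 0.000486) and by 1.51 ± 0.26 in CD8KO (adjusted p = 0.0113). Lrsam1 was not called, at -0.70 ± 1.38 and -0.58 ± 0.41 (adjusted p = 0.789 and 0.347). Of the other nearby genes tested none was called. Fam129b was at -1.13 ± 0.46 in wild type and 0.77 ± 0.32 in CD8KO (edgeR adjusted p = 0.144 and 0.135). Garnl3 was at 1.11 ± 1.57 and 0.32 ± 0.45 (adjusted p = 0.695 and 0.658). Gm38299, tested in CD8KO alone, was at -0.12 ± 1.88 (adjusted p = 0.974). The 10 near-identical copies of Rpl12 were lower in LrNK as well: they summed to 4.98 to 7.99 CPM in the 7 LrNK libraries and to 14.9 to 19.2 CPM in the 6 cNK libraries. The copies were thus not higher where Rpl12 was lower.

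Between genotypes Rpl12 did not pass the test. Its change under the CD8KO label was -0.31 ± 0.43 (log2 ± SE) in LrNK (edgeR adjusted p = 1.0, 95% interval -1.33 to 0.71) and 0.02 ± 0.06 in cNK (adjusted p = 0.939, 95% interval -0.10 to 0.14). The LrNK interval spans falls of more than 2-fold. The contrast of these 2 changes was -0.30 ± 0.41 (adjusted p = 0.999).

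**Figure D2:**
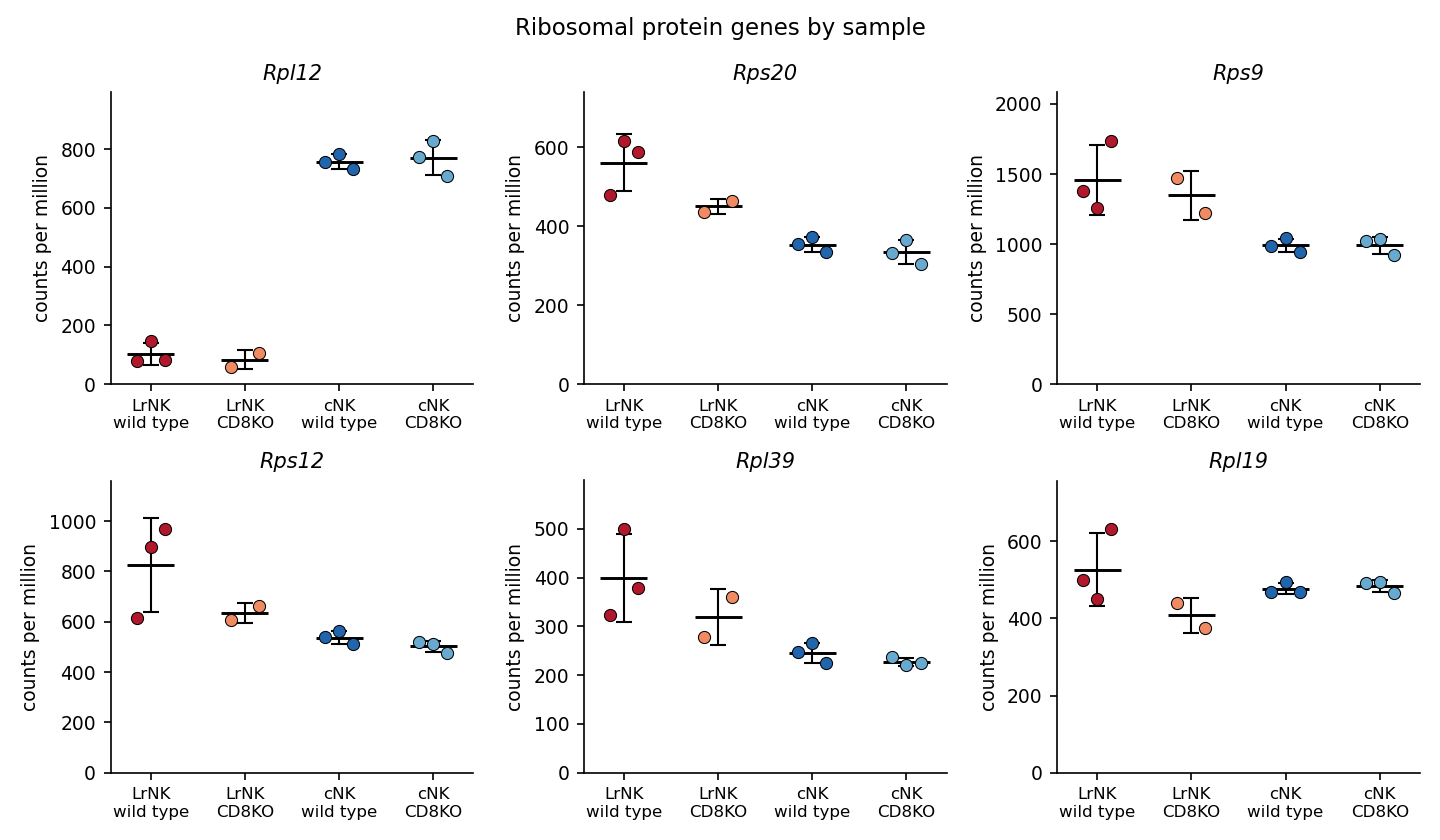
CPM (vertical axis, from 0) of 6 ribosomal protein genes in each sample of the 4 groups, with means (lines) and 1 SD (bars; n = 3, 2, 3 and 3). Rpl12 is lower in every LrNK sample, Rps20, Rps9, Rps12 and Rpl39 lie higher in LrNK than in cNK samples, and Rpl19 overlaps between LrNK and cNK in wild type.

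Most other members were slightly higher in LrNK wild type than in cNK wild type. Of the 83 members tested, 81 had a positive log2 change, with a median of 0.45, while 46.0% of all 16456 genes tested had one, with a median of -0.08. In edgeR's quasi-likelihood test with Benjamini-Hochberg adjustment, 13 members rose and 1 (Rpl12) fell, against 10.9% and 9.83% of all genes tested. A share of 15.7% of members called higher is near that background. In CPM with TMM scaling, as in the fit, the groups did not overlap, with LrNK above, for 45 of 83 members (54.2%), against 19.6% of all genes. By library totals only, the scaling of every CPM printed here, this held for 36 members (43.4%), against 17.0% of all genes. Rpl12 was the only one below under either scaling, against 28.2% and 31.7% of all genes. Calls rested on few samples: without any 1 of the 3 cNK wild-type samples no member was called higher, and leaving out LrNK wild-type sample 1, 2 or 3 gave 46, 23 and 6, where 11.8%, 15.5% and 12.4% of all genes were called higher. With LrNK libraries of few detected genes alone 23 members were called higher, and with those of many alone 67 of 84, against 15.5% and 28.1% of all genes, the latter in a fit where LrNK is a lone sample assumed to vary like the cNK samples. At an unadjusted p under 0.05, 45 members were higher and 1 lower. The share of all genes at that unadjusted cut was not computed, here or in the comparisons below. Such counts therefore cannot be called particular to the members.

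By role, 7 of 43 large-subunit members were called higher, among them Rpl3, Rpl13, Rpl17, Rpl18, Rpl37a and Rpl39. Of 31 small-subunit members 5 were called: Rps9, Rps12, Rps15a, Rps20 and Rps27a, the last made as a fusion with ubiquitin. Of the 3 stalk members Rplp2 was called, and none of the 5 paralogs tested was. The median changes of the large, small and stalk members were 0.45, 0.47 and 0.57.

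Named members show the size of these differences. Rps15a, a small-subunit protein, was at 693, 1144 and 905 CPM in LrNK wild type and at 529, 558 and 529 CPM in cNK wild type. It rose by 0.86 ± 0.22 (log2 ± SE, edgeR adjusted p = 0.0361). Rplp2, the partner of Rplp1 in the stalk, was at 748, 1262 and 928 CPM against 559, 606 and 574 CPM, a rise of 0.85 ± 0.23 (adjusted p = 0.0427). Both genes were highest in LrNK wild-type sample 2, and neither group overlapped the other.

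In mice labelled CD8KO most members also had a positive change in LrNK. Of 84 members tested, 73 had a positive change, with a median of 0.25, against 47.8% of all genes and a median of -0.05. In edgeR's test 8 members rose (Rpl26, Rpl28, Rpl39, Rps9, Rps12, Rps19bp1, Rps20 and Rps26) and Rpl12 fell, against 15.4% and 11.6% of all genes tested, so the share of members called higher, 9.52%, lay below that of all genes. In TMM-scaled CPM, LrNK lay above cNK without overlap for 43 members (51.2%), against 27.2% of all genes, and below for Rpl12 and Rpl19, against 32.7%. By library totals only it lay above for 28 members (33.3%), against 23.3% of all genes, and below for 5 (5.95%), Rpl12 and Rpl19 among them, against 38.4%. Without any 1 cNK CD8KO sample no member was called higher. Leaving out LrNK CD8KO sample 1 gave 57 of 85 higher and 6 lower, against 29.3% and 26.2% of all genes. Leaving out sample 2 gave 28 of 84 and 8, against 28.6% and 40.7%, each with a lone LrNK sample assumed to vary like the others. With sample 1 alone the median fell to 0.10, and with library totals as the only scaling it was 0.13, where the median of all genes moved from -0.05 to -0.17. Rpl28, a large-subunit protein with no bacterial counterpart, rose by 0.83 ± 0.23 (adjusted p = 0.0468) from 392, 409 and 359 CPM in cNK to 487 and 765 CPM in LrNK.

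Called higher in LrNK in both genotypes were 4 members: Rps9, Rps12, Rps20 and Rpl39. The share of all genes called higher in both was not computed. In the separate comparisons it was 10.9% in wild type and 15.4% in CD8KO. Rps20 was at 480, 617 and 587 CPM in LrNK wild type and 438 and 463 CPM in LrNK CD8KO, and at 306 to 372 CPM in the 6 cNK samples. It rose by 0.75 ± 0.15 (log2 ± SE, edgeR adjusted p = 0.0181) and 0.55 ± 0.13 (adjusted p = 0.0267). Every LrNK sample was above every cNK sample for this small-subunit protein.

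Rps9, which lies at the mRNA entry channel, was at 1379, 1258 and 1738 CPM in LrNK wild type and 1472 and 1223 CPM in LrNK CD8KO, against 923 to 1042 CPM in the cNK samples. Its rises were 0.63 ± 0.14 (adjusted p = 0.0246) and 0.56 ± 0.11 (adjusted p = 0.0193). Rps12 was at 615, 898 and 967 CPM and at 605 and 661 CPM in LrNK, against 477 to 562 CPM in cNK, with rises of 0.71 ± 0.20 (adjusted p = 0.0479) and 0.46 ± 0.12 (adjusted p = 0.0375). Rpl39, a very small protein lining the exit tunnel, was at 323, 499 and 379 CPM and at 279 and 360 CPM, against 220 to 266 CPM, with rises of 0.80 ± 0.21 (adjusted p = 0.0402) and 0.62 ± 0.16 (adjusted p = 0.0370). In none of the 4 did an LrNK sample overlap a cNK sample. They were picked by their calls in these same samples, so this is a description only.

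Across the 83 members tested in both genotypes, 72 had a positive change in both, Rpl12 a negative one in both and 10 had opposite signs. The 2 sets of log2 changes correlated with Pearson's r = 0.91 and Spearman's rho = 0.82 over the 83 members, and with r = 0.74 over 82 without Rpl12. These are descriptions across genes, which share libraries and depth within each comparison.

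**Figure D3:**
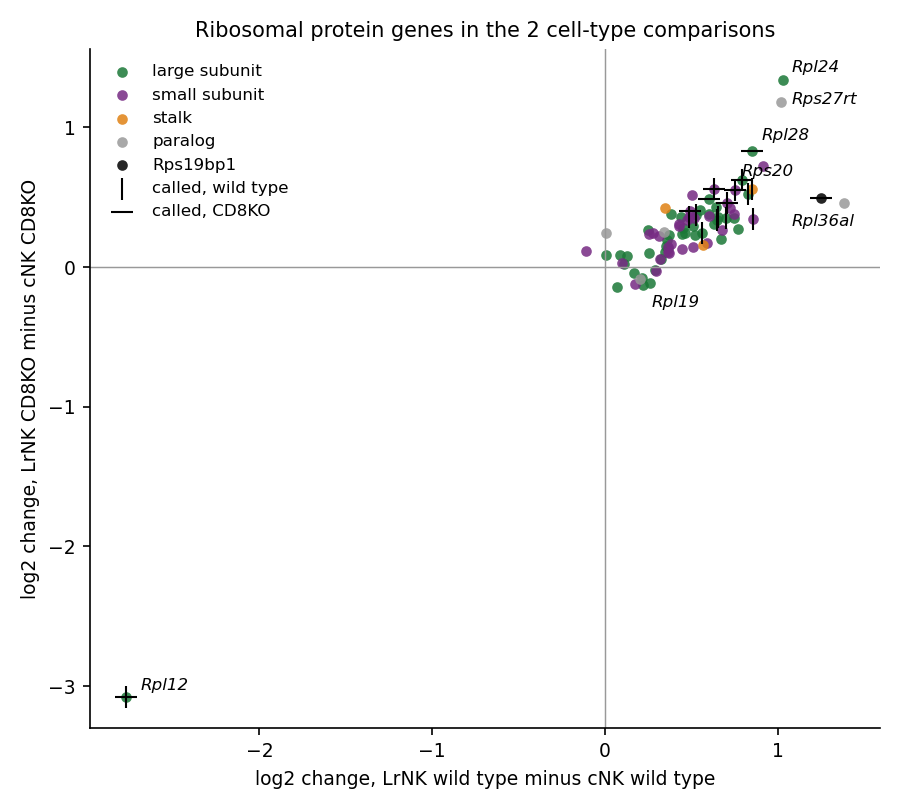
Log2 change of each ribosomal protein gene between LrNK and cNK in wild type (horizontal axis) and in CD8KO mice (vertical axis), coloured by role; vertical and horizontal ticks mark genes called in the wild-type and the CD8KO comparison. Rpl12 lies alone at -2.77 and -3.08, and 72 of 83 genes are above 0 in both.

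Members chosen for their known roles mostly did not pass. Rplp0, the stalk's anchor and a common reference gene, was at 1595, 1365 and 1914 CPM in LrNK wild type, 1943 and 1519 CPM in LrNK CD8KO and 1297 to 1467 CPM in cNK. It was higher by 0.35 ± 0.14 in wild type (edgeR adjusted p = 0.127) and 0.42 ± 0.12 in CD8KO (adjusted p = 0.0554). Rpl5 and Rpl11, which form the 5S particle, differed by 0.07 ± 0.16 and 0.34 ± 0.18 in wild type (adjusted p = 0.818 and 0.240). Rps6 differed by 0.28 ± 0.14 (adjusted p = 0.207), Rps19 by 0.26 ± 0.14 (adjusted p = 0.251) and Rpsa, also known as a laminin receptor, by 0.38 ± 0.12 (adjusted p = 0.0716). Rpl10a and Rpl38, named in work on specialised translation, differed by 0.45 ± 0.16 and 0.75 ± 0.30 (adjusted p = 0.103 and 0.138). Rps26 was called in CD8KO alone, at 0.40 ± 0.10 (adjusted p = 0.0411) against 0.49 ± 0.16 (adjusted p = 0.0844) in wild type, where its estimate was the larger.

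No member was called under the CD8KO label in either cell type. With a biological coefficient of variation of 98.2% in LrNK, this does not show that none changed there. In LrNK, 0 of 83 members were called in either direction, as were 0% of all 16504 genes tested by edgeR, and at an unadjusted p under 0.05 none was. DESeq2 and limma voom also called no member. Of all genes, DESeq2 called 0.236% higher and 0.121% lower, and voom 0% in either direction. The estimates leaned one way: 79 of 83 were negative, with a median of -0.26 against 0.02 for all genes, and 11 members (13.3%) lay below wild type without overlap, against 8.00% of all genes, while none (10.4% of all genes) lay above. Those counts are in TMM-scaled CPM. In the CPM printed here, scaled by library totals only, 17 members (20.5%) lay below and none above, against 8.47% and 9.84% of all genes. Rpl13, Rpl14, Rpl19, Rpl22, Rps16 and Rps19bp1 lay below under both scalings. The median ran from -0.42 without LrNK wild-type sample 1 to -0.14 without sample 2, where 21 of 83 members were positive. The smallest p values belonged to Rps15a at -0.55 ± 0.33, Rps16 at -0.41 ± 0.26 and Rps19bp1 at -0.87 ± 0.47, each with an adjusted p of 1.0 in edgeR.

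In cNK, the standard errors were far smaller and the differences near 0. No member was called by edgeR, against 0.499% of all genes higher and 0.812% lower. DESeq2 called no member, against 1.38% of all genes higher and 1.71% lower. Limma voom called no member either, against 0.836% and 1.16%. The median change was -0.02 and 57 of 83 were negative. In TMM-scaled CPM no member's groups were free of overlap in either direction, against 8.82% of all genes above and 8.99% below. By library totals only, Rpl14 and Rpl31 (2.41% of members) lay below and none above, against 8.35% and 9.68% of all genes. At an unadjusted p under 0.05 none was higher and 2 were lower: Rps27rt, an intronless Rps27 copy, at -0.34 ± 0.14 (edgeR adjusted p = 0.313) and Rpl36a at -0.14 ± 0.06 (adjusted p = 0.341). Rpl31 followed at -0.12 ± 0.06 (adjusted p = 0.394). For Rps6 the change was -0.01 ± 0.06 and for Rplp0 0.06 ± 0.05.

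Whether the CD8KO change was unequal in LrNK and cNK was tested as an interaction in a fit of all 4 groups. No member was called in it, against 0.00518% of all genes higher and 0.0363% lower, and none had an unadjusted p under 0.05 by edgeR. The median was -0.21 and 74 of 84 were negative. Rpl19 was at -0.34 ± 0.18 (adjusted p = 0.683), Rpl13 at -0.31 ± 0.17 (adjusted p = 0.705) and Rps15a at -0.51 ± 0.28 (adjusted p = 0.716). With LrNK libraries of many detected genes alone, 21 of 85 members were called lower and none higher, against 4.56% and 9.03% of all genes, with 1 LrNK sample per genotype. With those of few detected genes alone no member was called, against 3.50% of all genes lower and 6.4% higher.

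Within LrNK, members differed between samples in an order that followed their length. The 2 samples with many detected genes (sample 2 of each genotype) were set beside the 3 with few, for 73 members (without Rpl12, Rpl13a, Rpl24 and Rps10). Their mean log2 CPM differed by a median of 0.06, but single members differed from -0.54 to 0.89. In 12 members both samples lay above all 3 others, and in 11 both lay below. This split was not counted over all genes, so these counts cannot be called particular to the members. Higher were Rps27, Rpl38, Rpl30, Rplp1, Rpl27, Rps29, Rpl28, Rplp2, Rpl23, Rpl35, Rpl31 and Rps2. Lower were Rpl5, Rps3a1, Rpl7, Rps3, Rpl11, Rpl7a, Rplp0, Rps23, Rps9, Rpl4 and Rpl9.

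Rps27, with 252 coding bases, was at 1431 and 1101 CPM in sample 2 of each genotype and at 713, 794 and 551 CPM in the other 3. Rpl38, with 210 coding bases, was at 609 and 389 CPM against 321, 318 and 249 CPM. Rpl5, with 891 coding bases, went the other way, at 691 and 630 CPM against 952, 1059 and 868 CPM. Rps3a1, with 792, was at 1143 and 881 CPM against 1378, 1642 and 1244 CPM. These 4 were picked from the ends of the range, and others went against the order: Rps2, with 879 coding bases, was among the 12 higher ones and Rps23, with 429, among the 11 lower ones. Across the 73 members the difference had a Spearman's rho of -0.71 with coding length, a description across genes with no test, in which members share libraries and depth.

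The same order showed in the shares. The 24 members with the shortest coding sequences (75 to 396 bases) held 27.9% and 24.8% of the counts of these 73 genes in sample 2 of LrNK wild type and CD8KO. They held 20.9%, 21.7% and 19.7% in the other 3 LrNK samples and 21.0% to 21.4% in the 6 cNK samples. The 24 longest (582 to 1257 bases) held 36.3% and 40.3% in sample 2, 43.1% to 47.3% in the other LrNK samples and 44.6% to 45.6% in cNK. LrNK samples with few detected genes were therefore nearer to cNK in the long and short balance, and sample 2 of each genotype stood apart from both.

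**Figure D4:**
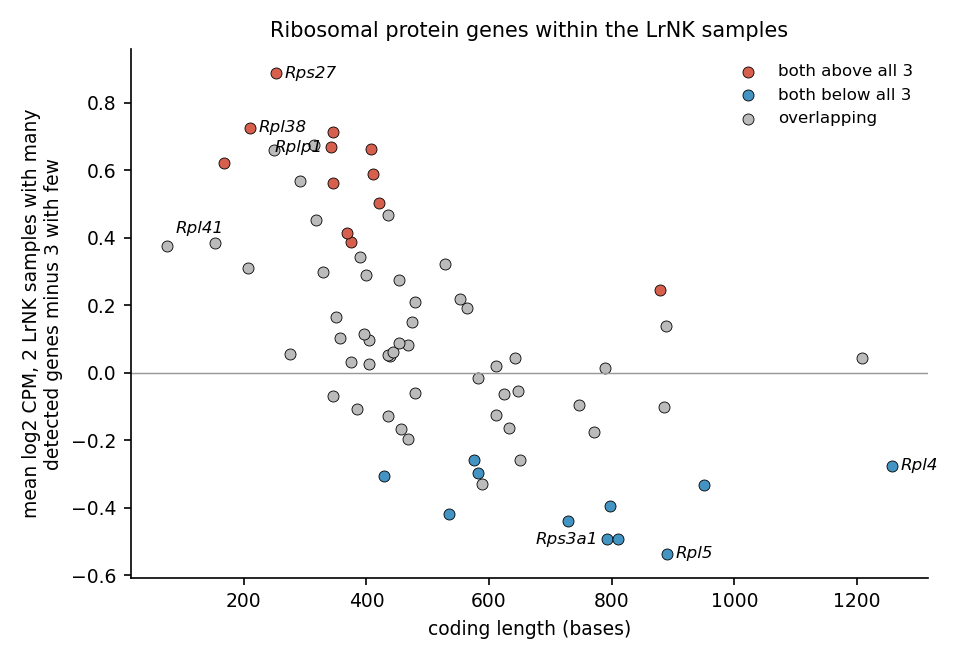
For 73 ribosomal protein genes, the mean log2 CPM of the 2 LrNK samples with many detected genes minus that of the 3 with few (vertical axis) against coding length in bases (horizontal axis). Red points are the 12 genes where both samples lie above all 3 others, blue points the 11 where both lie below; short genes such as Rps27 tend to lie high and long genes such as Rpl5 low, with exceptions such as Rps2 and Rps23.

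Coding length also moved with the difference between cell types. In LrNK against cNK wild type the 24 shortest, 25 middle and 24 longest of the 73 members had median log2 changes of 0.62, 0.51 and 0.34, and Spearman's rho with coding length was -0.48, against -0.22 over all 12438 protein-coding genes with a value. In CD8KO the medians were 0.32, 0.24 and 0.23 and rho was -0.25, against -0.09 over 13104 genes. In LrNK CD8KO against LrNK wild type, where no member was called, rho was 0.47, against 0.17 over 12668 genes, with medians of -0.31, -0.27 and -0.19. In cNK CD8KO against cNK wild type rho was 0.15, against -0.08 over 12364 genes, with medians of -0.02, -0.03 and -0.01. The part of coding length or of the library set in the calls above was not tested.

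The paralogs were compared as ratios to their common partner, per length. Rpl22l1, which can replace Rpl22 in the ribosome, was close in level to Rpl22, an RNA-binding large-subunit protein, in all samples. It stood at 72.6, 85.99 and 77.4 RPKM per 100 RPKM of Rpl22 in LrNK wild type, 84.0 and 70.3 in LrNK CD8KO, 88.5, 76.9 and 93.1 in cNK wild type and 85.6, 91.2 and 79.2 in cNK CD8KO. The groups overlapped. The mean log2 ratio was lower in LrNK (n = 5) than in cNK (n = 6) by 0.14, with an exact two-sided permutation p of 0.0974 and 0.162 after adjustment over the 5 pairs tested. No pair passed, and the smallest p this design allows is 0.00216.

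Rpl7l1, an assembly factor related to Rpl7, stood at 3.51 to 4.87 per 100 of Rpl7 in the 5 LrNK samples and 3.17 to 3.67 in the 6 cNK samples, with 0.23 higher mean log2 ratio in LrNK (exact permutation p = 0.0260, adjusted 0.130). Rps27l, a target of p53 that can stand in for Rps27, was at 1.76 to 5.95 per 100 of Rps27 in LrNK and 4.15 to 5.06 in cNK. Its own level hardly differed, at a mean of 72.8 RPKM in LrNK wild type and 76.6 in cNK wild type, while Rps27 itself varied (exact permutation p of the ratio = 0.0563, adjusted 0.141). Rpl36al was at 0.420 to 1.84 per 100 of Rpl36a in LrNK and 0.495 to 0.725 in cNK (exact permutation p = 0.156, adjusted 0.195). The level of Rpl36al is uncertain, since 24.5% of its exon bases are shared with Gm49383 on the same strand. Its near-identical copy held a mean of 2.06 CPM against 4.17 CPM for the gene itself. Rpl39l, a testis-enriched relative of Rpl39, was at no more than 0.234 per 100 of Rpl39 in any sample, with an exact permutation p of 0.584, and its low counts carry little information. Rpl3l, the striated-muscle form, reached 0.0318 per 100 of Rpl3 at most, Rpl10l had no counts, and neither pair was tested.

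**Figure D5:**
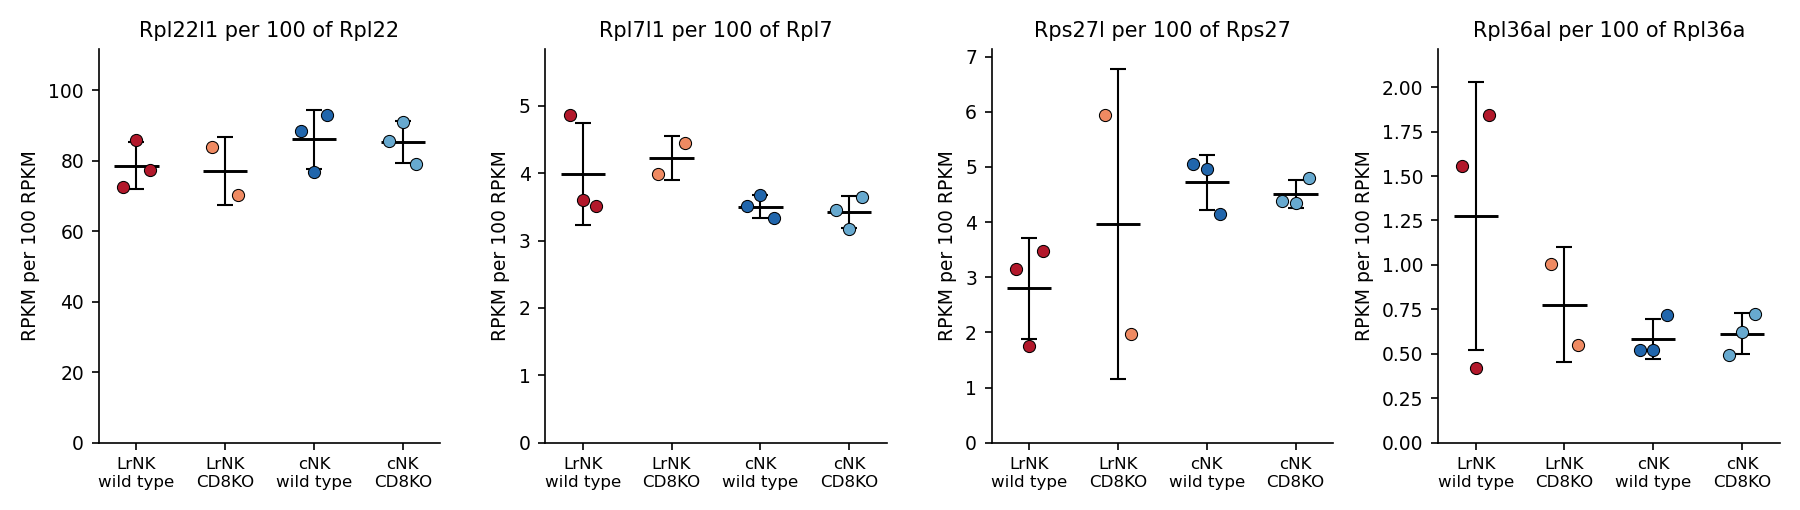
RPKM of 4 paralogs per 100 RPKM of the common gene (vertical axes, from 0) in each sample of the 4 groups, with means (lines) and 1 SD (bars; n = 3, 2, 3 and 3). Rpl22l1 is near Rpl22 in level, between 70.3 and 93.1 in all samples, while the others stay under 6 per 100, with overlap between LrNK and cNK.

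Genes that work with the ribosome moved less as lists. For each list count of LrNK against cNK below, 10.9% of all genes were called higher and 9.83% lower in wild type. In CD8KO these shares were 15.4% and 11.6%. Rack1, a small-subunit scaffold protein outside the naming rule, was higher in LrNK by 0.54 ± 0.14 in wild type (edgeR adjusted p = 0.0348) and 0.50 ± 0.10 in CD8KO (adjusted p = 0.0201). Of 38 translation factors, 6 rose and 2 fell in wild type and 4 rose and none fell in CD8KO. Eif5a, needed for hard peptide bonds, rose by 0.74 ± 0.13 and 0.72 ± 0.14, and Eif4a1, the helicase of cap-dependent initiation, by 0.60 ± 0.12 and 0.96 ± 0.13. The list's median was 0.15 in wild type and 0.10 in CD8KO. Under the CD8KO label in cNK 1 factor was called, against 0.499% of all genes higher and 0.812% lower. That factor, Eif4a2, fell by 0.31 ± 0.04 on the log2 scale (edgeR adjusted p = 0.00111).

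Other messages with a TOP tract (18 genes) had 1 call in each direction in wild type and 1 rise in CD8KO, with medians of 0.16 and 0.22. Of 32 ribosome assembly genes 3 rose and 3 fell in wild type, and 2 rose and 3 fell in CD8KO. Genes of this list fell and rose in LrNK. Falls were seen in both genotypes for Rrp9, part of the U3 particle, by -1.75 ± 0.17 and -1.61 ± 0.16, and Rrp1 by -3.50 ± 0.63 and -2.99 ± 0.61. Nop2 fell in wild type by -0.64 ± 0.15 (edgeR adjusted p = 0.0315), and Nop16 rose in CD8KO by 1.01 ± 0.22 (adjusted p = 0.0245). Of 16 genes of the mTOR and TOP control list, 1 rose and 1 fell in wild type and 2 rose and 1 fell in CD8KO. Eif4ebp1, the brake on cap binding that mTOR releases, rose by 1.399 ± 0.20 and 2.05 ± 0.20 (edgeR adjusted p = 0.00571 and 0.00189). Larp1, which holds TOP messages, rose in CD8KO by 0.48 ± 0.09 (adjusted p = 0.0155). Larp4 fell in wild type by -0.63 ± 0.18 (adjusted p = 0.0474), and Tsc1, a brake on mTOR, fell in CD8KO by -0.61 ± 0.16 (adjusted p = 0.0392).

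The mitochondrial ribosomal proteins, a separate set made for the organelle's own ribosome, had 1 rise and 1 fall among 77 tested in wild type and 4 rises and 7 falls in CD8KO, with medians of 0.19 and -0.04. Their share of counts was 0.227% ± 0.025 (SD, n = 3) in LrNK wild type and 0.212% ± 0.004 (SD, n = 3) in cNK wild type, but 0.193% ± 0.018 (SD, n = 2) in LrNK CD8KO and 0.216% ± 0.004 (SD, n = 3) in cNK CD8KO. Mrpl24 fell in both comparisons, by -0.41 ± 0.10 and -0.60 ± 0.10. Of 115 tested ribosomal protein pseudogenes 10 rose and none fell in wild type, against 10.9% and 9.83% of all genes. In CD8KO 13 rose and 1 fell, against 15.4% and 11.6% of all genes. Their counts made up 0.0718% ± 0.0152 (SD, n = 3) of all counts in LrNK wild type and 0.0349% ± 0.0024 (SD, n = 3) in cNK wild type. Reads of these copies and of the members cannot be told apart where the sequences are the same.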

How the data were processed

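RNA of sorted NK cells was measured by RNA-seq in 13 libraries. Per the labels, the authors deposited 1 table of raw counts per library, whole numbers for 54532 Ensembl genes. HISAT2 2.1.0 and the build GRCm38 are listed in the submitters' processing notes. The tool that counted, its annotation release and its use of strand: not given in the sources used here. Symbols, positions and transcript lengths came from GENCODE M21, which matched 54495 identifiers and left 37 unmatched. The genes, lists and tests were chosen with earlier results of these data known.

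Closely agreeing libraries were summed. A gene was tested with edgeR 4.0.16 (R 4.3.3, quasi-likelihood, TMM scaling, filterByExpr with a minimum count of 10 and total of 15) in a fit of the 2 groups compared, or of all 4 groups for the interaction. Benjamini-Hochberg adjustment ran over all genes tested, and calls were made at an adjusted p under 0.05. Nothing states that libraries came from separate mice, so p-values measure the spread between these samples, which may be technical. Paralog ratios used log2 of RPKM plus 0.1 and an exact permutation test (scipy 1.17.1). RPKM rests on 1 APPRIS principal transcript per gene; that of Rps15a has 5179 bases and that of Rps20 3706, so their per-length levels are low. Copies were found with BLAST 2.17.0 (at least 95% identity over 200 bases and 50% of the copy's transcript). The scripts were tested on simulated data. Some results are not reported here.

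Named were the paralog pairs, 10 members with known roles, the 5 highest and 5 lowest per length and, among members whose average log2 CPM reached 2, the 5 largest called rises and falls per comparison, or the 3 smallest p where fewer than 3 were called. Of the other lists the 3 genes with the smallest p were eligible. Members in the description of the LrNK samples by coding length, and that split by length itself, were chosen after their values were seen. Alternatives were other scalings, no low-count filter, 13 separate libraries, a 4-group fit, DESeq2 1.42.0, limma 3.58.1 voom, the replicate block, the 2 LrNK library sets and each sample left out. The overlap of groups by library totals only was added after seeing the data. Replicate numbers were not taken to pair the samples (the values stand under the dependence on processing).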

Additional observations from a re-analysis of the deposited data

How the results depend on the processing

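The fall of Rpl12 in LrNK passed the test under every alternative run in both genotypes. The counts of members called higher did not hold, against 13 (wild type) and 8 (CD8KO). In LrNK against cNK wild type the count was 4 with no filter on low counts, 28 with all 13 libraries separate, 31 in the 4-group fit, 41 in DESeq2, 22 in limma voom with sample weights, 23 with LrNK libraries of few detected genes only and 67 (with 2 lower) with those of many only. In CD8KO it was 4 with library totals only, 5 with no filter, 28 with separate libraries, 2 in the 4-group fit, 24 in DESeq2, 3 in voom, 28 (with 8 lower and a median of 0.096) with few-gene libraries only and 57 (with 6 lower) with many-gene libraries only. The same many-gene setting gave 21 members lower in the interaction, where Rpl12 was at -0.47 (edgeR adjusted p = 0.0173) and Rps15a at -0.69 (adjusted p = 0.00109). The share of all genes called higher in LrNK moved with the setting as well. In wild type it was 5.22% with no filter, 12.7% with separate libraries and 11.9% in the 4-group fit. There DESeq2 gave 15.5%, voom 12.2% and the few-gene libraries 15.5%. In CD8KO it was 13.3% with library totals only, 9.59% with no filter, 20.4% with separate libraries and 10.4% in the 4-group fit. For CD8KO, DESeq2 gave 20.4% and voom 13.6%. The cause of these moves was not tested.

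Leaving out 1 sample gave 0 to 46 members higher in wild type, where 3.44% to 15.5% of all genes were called higher. Member medians were then 0.096 to 0.34 in CD8KO, -0.42 to -0.14 in LrNK by label and -0.38 to -0.077 in the interaction. Rpl12, not called by label, ran from -0.87 to 0.11 in LrNK (0.09 without CD8KO sample 1), from -0.037 to 0.078 in cNK (-0.02 without wild-type sample 3) and from -0.87 to 0.11 in the interaction (0.07 without LrNK CD8KO sample 1). The Rps27l to Rps27 log2 ratio ran from -0.89 to -0.45 and passed in 1 case (without LrNK CD8KO sample 1, exact permutation adjusted p = 0.0238). The Rpl39l to Rpl39 ratio was 0.0010 with all 13 libraries separate, against -0.45.

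With the replicate number as a block, 2 members were called higher in wild type and 0 in CD8KO, against 6.17% and 7.70% of all genes. In LrNK by label the block called 168 of 16504 genes higher and 12 lower, none of them a member, against 0 and 0 without it. Deviations of same-numbered samples correlated at 0.0075, -0.0082 and 0.069 in cNK and at 0.31 and 0.52 in the 2 LrNK pairs, and no label states a pairing. Without the 50 other genes with most counts in the total, the members' share was 7.31% in LrNK wild type, 6.05% in LrNK CD8KO, 5.57% in cNK wild type and 5.57% in cNK CD8KO. With library totals only, the median of all genes moved to -0.16 in wild type and -0.17 in CD8KO, and 78 of 83 and 61 of 84 members were positive. Overlap by that scaling stands beside each count.

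Counts in the LrNK samples limit what can be said of genotype there: their spread is far above that of cNK, and 2 CD8KO samples give wide intervals. For Rpl39l and Rpl3l the depth is too low to show a difference.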
